A study of Homo sapiens with 47 samples.

Results

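The clustered protocadherins are cell adhesion receptors of the cadherin superfamily that are encoded side by side on chromosome 5 in an alpha, a beta and a gamma cluster. Genes were included when their symbol began with PCDHA, PCDHB or PCDHG followed by a member name, and symbols ending in P (pseudogenes) or holding AS (antisense RNAs) were left out. This gave 54 of the 57507 genes in the table: 14 alpha, 16 beta and 19 gamma isoforms and the 5 C-type isoforms, PCDHAC1, PCDHAC2, PCDHGC3, PCDHGC4 and PCDHGC5. On GRCh38 (GENCODE release 44) they lie on the plus strand of chromosome 5 between 140786136 and 141512977, with the alpha isoforms first, the beta isoforms from 141051374 to 141249365 and the gamma isoforms last. PCDHA14 is annotated as a pseudogene and the other 53 genes as protein coding.

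Each alpha or gamma isoform starts at its own promoter with a large variable exon, which is spliced to constant exons shared by the whole cluster, whereas each beta isoform is a gene of its own without a shared exon. In neurons a cell uses a small set of isoforms, drawn by promoter choice that involves DNA methylation, the insulator protein CTCF and looping by cohesin to distal enhancers, while C-type isoforms are regulated apart from the others. The proteins pair across cell contacts with proteins of the same isoform, which lets a neurite tell itself from its neighbours. Because alpha and gamma isoforms share their last exons and beta isoforms resemble one another, RSEM, which assigned the reads to genes here, had to share part of the reads between isoforms. The effect of this sharing on the values was not tested.

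RNA was sequenced from HAP1, a near-haploid human line from chronic myeloid leukemia, and from HCT116, a near-diploid line from colorectal carcinoma. The HAP1 set held 32 libraries: 4 replicates each of untransfected wild-type cells (WT), of a control given a Cas9 vector without guide RNA (EV), and of the clones C1, C2, C3, C4, C5 and C6. Each clone grew from a single cell that received Cas9 and a pair of guides against exons 4 and 13 of *NUP58*, a nuclear pore gene, and the clones were chosen as the smallest viable colonies. The HCT116 set held 15 libraries: 2 of WT, 3 of EV1 and 4 of EV2 (Cas9 without guide), 4 of one *NUP58* mutant line (Clone), and 2 whose title and genotype contradict each other but name unedited cells in both. No treatment is named for any library. The study describes the HAP1 replicates as biological or experimental. It calls those of HCT116 biological in the legend of its exon usage plots and technical in that of its *NUP58* RNA levels. In both sets, p-values of fits by line measure the spread between repeats of one line. Where unedited lines were pooled, the spread also holds differences between those lines, and repeats of a line were treated as independent.

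*NUP58* checked the labels. Its mean level was 40.3 to 41.3 FPKM in HAP1 WT and EV and 9.80 to 25.5 FPKM in the 6 clones. In HCT116 the library labelled Clone replicate 3 had 44.7 FPKM against 23.3 to 25.3 FPKM in the other 3 Clone libraries. The library labelled EV2 replicate 3 had 23.9 FPKM, so both stood against their labels. The other unedited HCT116 libraries ran from 28.7 (EV1 replicate 1) to 50.3 FPKM (EV2 replicate 4), so the lowest lay close to the Clone values. FPKM (fragments scaled to transcript length and to the mapped fragments of the library) summed to 604053 to 721992 per library over all genes, and the number of fragments behind a value is unknown. The colon epithelial markers EPCAM and KRT8 had means of 175 and 739.6 FPKM in HCT116, while VIL1 and CDX1 were at 0.0339 and 0.0028 FPKM. Of 8 blood markers, 1, RUNX1, had a mean over 1 FPKM in HAP1 (2.10), HBA1, CD14, CD33 and CD34 had means of 0.407, 0.260, 0.0843 and 0.0141 FPKM, and PTPRC, SPI1 and GATA1 were listed at 0 in every library. In HAP1, of 7 neuronal markers TUBB3, SYP and MAP2 had means over 1 FPKM, at 57.0, 2.89 and 2.88, while RBFOX3 and SNAP25 were at 0.233 and 0.0674. In HCT116, TUBB3, MAP2 and RUNX1 also had means over 1 FPKM, at 114, 1.76 and 9.66, and SYP was at 0.687. Of 9 colon markers, 4 had means over 1 FPKM in HAP1 and 5 in HCT116, with KRT18 at 27.3 and 484 FPKM. Of 6 fibroblast markers, 2 had means over 1 FPKM in each cell line. These were VIM, at 119 FPKM in HAP1 and 5.90 in HCT116, and COL1A1, at 6.58 and 7.23.

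Upstream sequence is shown for the beta isoforms on which the differences between clones turned, PCDHB2 and PCDHB3, for PCDHB5, the isoform with the highest mean level in HAP1, for PCDHB12, which reached 1 FPKM in every library of C6 alone, and for PCDHB1, which was listed at 0 in all 47 libraries. The sequences are from RefSeq (GRCh38.p14, plus strand), whose promoter table held 47 of the 54 genes; PCDHA3, PCDHA13, PCDHA14, PCDHB6, PCDHB11, PCDHGA12 and PCDHGC5 were not matched. Capitals mark the stretch GGTGGCGCT or, in PCDHB1, the stretch of the bases shown that is closest to it.
PCDHB2 (chr5:141094524-141094594): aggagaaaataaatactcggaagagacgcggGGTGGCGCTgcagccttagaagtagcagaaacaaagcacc
PCDHB3 (chr5:141100373-141100443): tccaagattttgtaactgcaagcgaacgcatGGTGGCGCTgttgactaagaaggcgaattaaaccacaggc
PCDHB5 (chr5:141135159-141135205): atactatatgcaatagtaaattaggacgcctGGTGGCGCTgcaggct
PCDHB12 (chr5:141208623-141208693): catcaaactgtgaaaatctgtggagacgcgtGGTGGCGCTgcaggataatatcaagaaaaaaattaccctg
PCDHB1 (chr5:141051294-141051373): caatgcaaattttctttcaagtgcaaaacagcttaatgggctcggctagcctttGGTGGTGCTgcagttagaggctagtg
The letters GGTGGCGCT were chosen after the beta promoters had been read, and both strands were searched from 250 bases before to 50 bases after each start. They were found in 13 of the 14 beta promoters in the table, with the first base between 84 and 2 bases before the start (motif positions -84 to -2, median -66). They were found in 0 of 11 alpha, 0 of 18 gamma and 0 of 4 C-type promoters, and in 176 of all 35116 promoters (0.501%). Since the letters came from the beta promoters and only exact copies were counted, these counts cannot compare the clusters. Whether alpha, gamma or C-type promoters hold a similar stretch was not tested. PCDHB1 was the beta promoter without the stretch. Its closest match was sought only on the plus strand of the bases shown. That match, at position -26, differed by C6T, counted from 1 at the 5′ end of the stretch. PCDHB2 and PCDHB3, whose levels differed most between clones, both carried the full stretch, as did beta isoforms that varied less.

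The isoforms of HAP1 were few. Over the 32 libraries, 7 of the 54 genes had a mean of at least 1 FPKM (12.96%, against 22.9% of all 57507 genes), 20 had a mean between 0.1 and 1 FPKM, and 27 were below 0.1 FPKM. PCDHA2 and PCDHB1 were listed at 0 in all 32 libraries. The 7 isoforms over 1 FPKM were PCDHB5 (8.50 ± 2.08 FPKM, SD, n = 32), PCDHGC3 (4.40 ± 1.74), PCDHGA10 (2.60 ± 0.804), PCDHB2 (2.18 ± 2.70), PCDHAC2 (1.93 ± 0.677), PCDHB8 (1.46 ± 0.603) and PCDHA3 (1.19 ± 0.336). PCDHB2 was the isoform among them whose SD exceeded its mean. The 3 clusters were used unevenly: 15 of the 16 beta isoforms had a mean of at least 0.1 FPKM, against 2 of 14 alpha and 7 of 19 gamma isoforms. The beta isoforms together summed to 18.2 ± 5.24 FPKM per library (SD, n = 32), the C-type isoforms to 6.66 ± 1.91, the gamma isoforms to 4.20 ± 1.26 and the alpha isoforms to 1.58 ± 0.502.

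**Figure D1:**
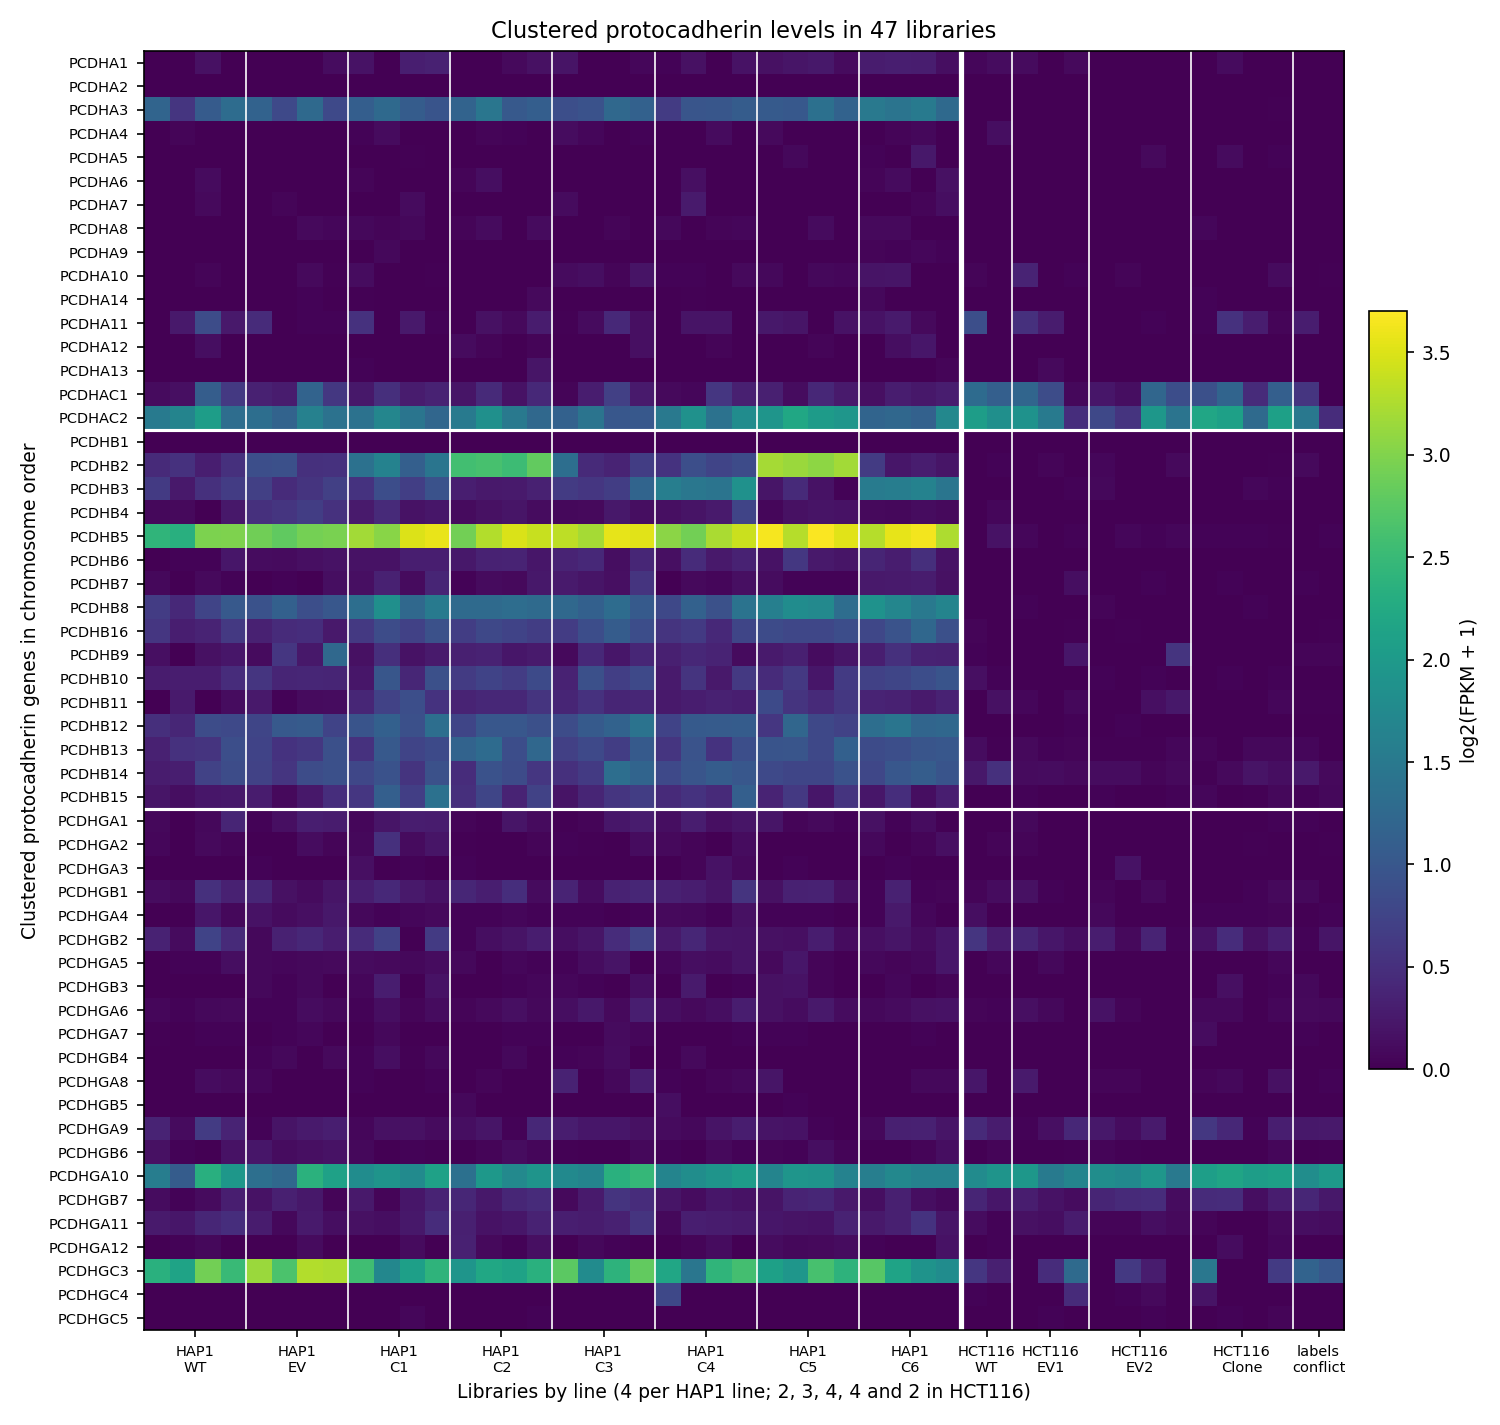
Level of each of the 54 genes (rows, in chromosome order within the alpha, beta and gamma clusters) in each of the 47 libraries (columns, grouped by line), as log2(FPKM + 1) by colour; the thick white line parts HAP1 from HCT116, and the last 2 columns are the HCT116 libraries with conflicting labels. PCDHB5, PCDHGC3, PCDHGA10 and PCDHAC2 are bright across HAP1, PCDHB2 is bright in C2 and C5, PCDHB3 in C4 and C6, and the beta rows are dark in HCT116.

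An isoform was called expressed in a line where every library of the line had at least 1 FPKM. By this rule WT and EV expressed the same 4 isoforms, PCDHB5, PCDHAC2, PCDHGC3 and PCDHGA10, and these 4 were expressed in all 8 HAP1 lines. C1 added PCDHB2 and PCDHB8 (6 isoforms), C2 and C5 each added PCDHA3, PCDHB2 and PCDHB8 (7 isoforms), C3 added PCDHB8 (5 isoforms), C4 added PCDHB3 (5 isoforms), and C6 added PCDHA3, PCDHB3, PCDHB8 and PCDHB12 (8 isoforms). In all, 9 isoforms were expressed in at least 1 HAP1 line: PCDHB8 in 5 lines, PCDHB2 and PCDHA3 in 3 each, PCDHB3 in 2 and PCDHB12 in 1. The PCDHA3 additions rest on values near the threshold, since its mean was 0.908 to 1.69 FPKM in all 8 lines. Other calls also had libraries near it. PCDHB8 had 1.07 to 1.49 FPKM in C3, against 0.850 to 1.20 in EV. PCDHAC2 fell to 1.01 FPKM in C3, and PCDHGA10 to 1.10 in WT.

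PCDHB2 differed most between the lines. It had 0.353, 0.439, 0.240 and 0.434 FPKM in the 4 WT libraries and 0.848, 0.876, 0.427 and 0.446 FPKM in EV. It had 8.16, 7.84, 7.44 and 8.12 FPKM in C5, 4.99, 5.18, 4.81 and 6.00 FPKM in C2, and 1.60, 2.11, 1.17 and 1.70 FPKM in C1. It had 0.566, 0.171, 0.227 and 0.151 FPKM in C6 and 0.456, 0.859, 0.685 and 0.798 FPKM in C4. The libraries of C5, C2 and C1 each lay above all 8 libraries of WT and EV and did not overlap one another, and those of C6 overlapped with WT. In C3, replicate 1 had 1.54 FPKM, while the other 3 libraries had 0.361, 0.293 and 0.599 FPKM. Bulk RNA cannot tell a level that is shared by all cells of a clone from a higher level in some of them.

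PCDHB3, the next gene downstream, had another order of clones. It had 0.551, 0.191, 0.420 and 0.580 FPKM in WT and 0.624, 0.371, 0.467 and 0.624 FPKM in EV. It had 2.00, 1.77, 1.68 and 2.66 FPKM in C4 and 1.91, 1.98, 2.11 and 1.70 FPKM in C6, above every library of the other 6 lines. It had 0.236, 0.193, 0.198 and 0.268 FPKM in C2 and 0.154, 0.351, 0.135 and 0.0254 FPKM in C5, the clones with the most PCDHB2. C1 (0.698 ± 0.203 FPKM, SD, n = 4) and C3 (0.737 ± 0.364) had means above the WT mean of 0.436 ± 0.177, and their libraries overlapped those of WT.

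As a share of the sum of the 2 isoforms, PCDHB2 made up 54.3% ± 12.5 in EV and 46.98% ± 15.4 in WT (SD of 4 libraries). It made up 97.9% ± 1.64 in C5, 95.9% ± 0.405 in C2 and 70.2% ± 5.81 in C1, against 12.2% ± 7.15 in C6 and 25.8% ± 6.28 in C4. C3, at 44.9% ± 19.3, ranged from 31.9% to 73.1% between its libraries, so its place beside WT and EV was not resolved. Of the summed beta isoforms, PCDHB2 was 30.4% ± 1.09 in C5 and 4.09% ± 1.80 in WT. PCDHB1-AS1, an antisense RNA outside the rule, overlaps PCDHB2 in the annotation, and whether the counting kept strand is not stated in the sources used here.

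**Figure D2:**
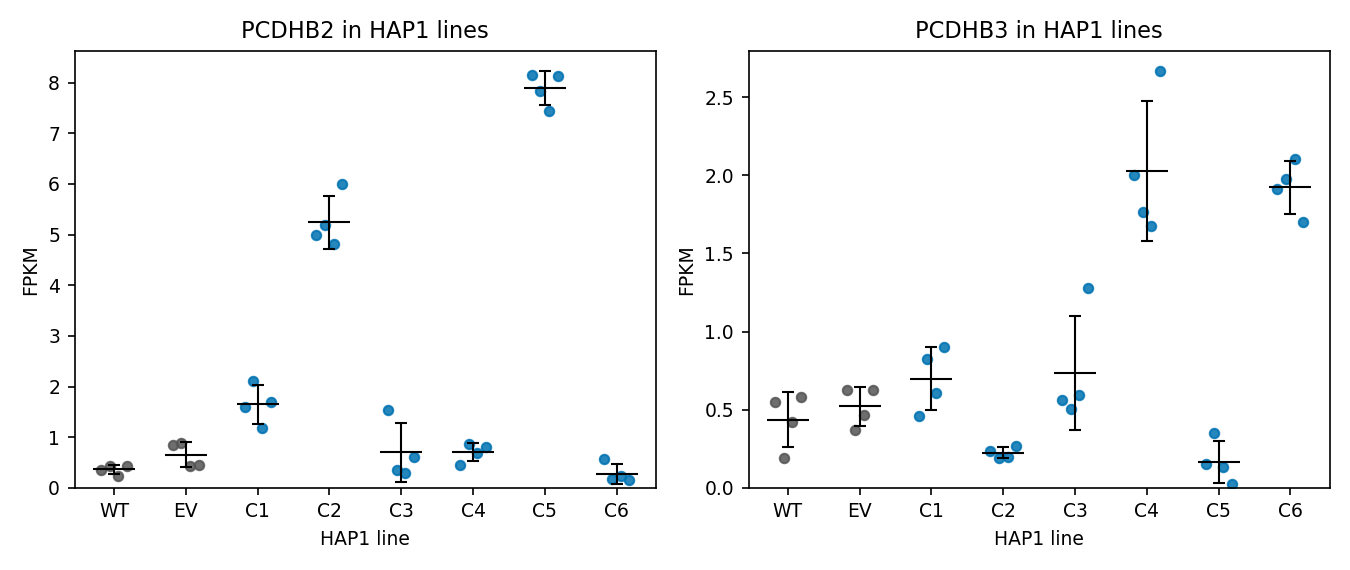
FPKM of PCDHB2 (left) and PCDHB3 (right) in each library of the 8 HAP1 lines (points; grey for WT and EV, blue for clones), with the mean and SD of the 4 libraries in black. PCDHB2 stands at 7.44 to 8.16 in C5 and 4.81 to 6.00 in C2, and PCDHB3 at 1.68 to 2.66 in C4 and 1.70 to 2.11 in C6.

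Differences among all 8 HAP1 lines were tested with limma's moderated F test on log2(FPKM + 1). It was run for the 18195 genes whose mean reached 0.1 FPKM, of which 27 were clustered protocadherins. At an adjusted p under 0.05 and a gap over 1 (log2) between the highest and lowest line mean, 2 of the 27 were called, PCDHB2 and PCDHB3, against 6.42% of all genes. The median gap was 0.48 over the 27 and 0.46 over all genes. The gap was 2.81 for PCDHB2, between C5 and C6 (limma adjusted p = 3.76e-14), and 1.37 for PCDHB3, between C4 and C5 (adjusted p = 2.76e-09). At any gap, 10 of the 27 passed the adjusted p, against 17.7% of all genes. The other 8 were PCDHB4, PCDHB5, PCDHB8, PCDHB11, PCDHB12, PCDHB15, PCDHB16 and PCDHAC2. PCDHB6, PCDHB7 and PCDHB11 averaged 0.0809, 0.0333 and 0.0848 FPKM in unedited HAP1 (WT and EV) and passed the filter only through the clones. The count of 10 therefore supports no conclusion for the set. A test of the 6 clones alone, which asks whether their changes against WT differ from each other, gave limma adjusted p-values of 8.38e-14 for PCDHB2, 1.64e-09 for PCDHB3, 0.0148 for PCDHB8 and 0.00633 for PCDHAC2, and those 4 of 27 passed, against 13.4% of all genes.

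The line accounted for 96.5% of the variance of PCDHB2 and 91.5% of that of PCDHB3 on the log2(FPKM + 1) scale, given as a description. Within a line their SD was 0.22 and 0.17, close to the median of 0.19 over the 27 genes. PCDHB8 (77.4%), PCDHB11 (76.5%), PCDHB16 (72.7%), PCDHB4 (67.6%), PCDHB5 (66.4%) and PCDHAC2 (61.3%) followed. PCDHGA10 (13.7%), PCDHA11 (14.3%) and PCDHAC1 (19.7%) had the lowest shares, all below the median of 29.2% over the 18195 genes, and the median of the 27 was 45.6%. The 27 include PCDHB6, PCDHB7 and PCDHB11, which passed the filter only through the clones. Their median therefore supports no conclusion for the set.

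**Figure D3:**
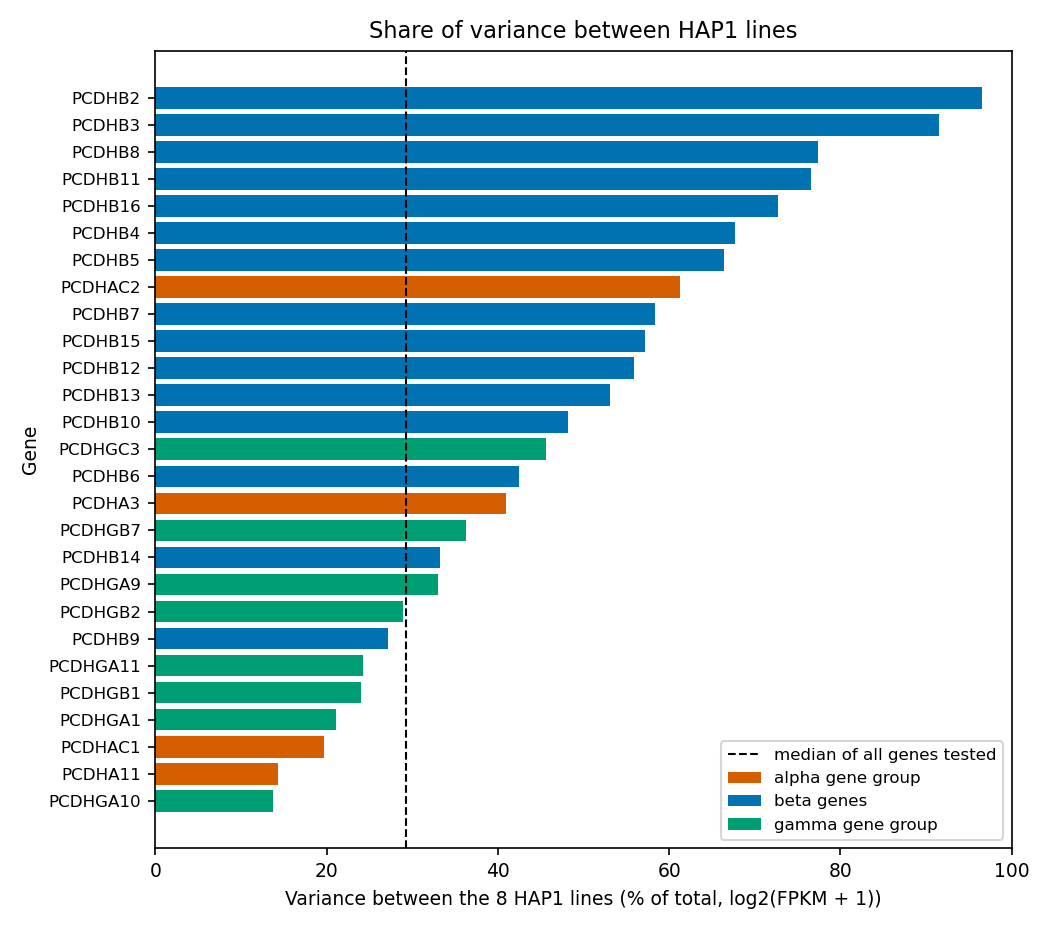
Share of the variance of log2(FPKM + 1) that lay between the 8 HAP1 lines (x axis, percent) for each of the 27 genes tested (bars, coloured by cluster, C-type isoforms with their cluster); the dashed line is the median of all genes tested. PCDHB2 and PCDHB3 lead at 96.5% and 91.5%, and PCDHGA10 is lowest at 13.7%.

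PCDHB5, the most abundant beta isoform of HAP1, was present in every line. It had 4.36, 4.06, 6.86 and 6.92 FPKM in WT and 6.42, 5.92, 6.59 and 6.78 FPKM in EV. Its mean was highest in C5 (10.7 ± 1.36 FPKM, SD of 4 libraries), followed by C6 (9.88 ± 1.51), C3 (9.65 ± 1.28), C1 (9.16 ± 1.77), C2 (8.72 ± 1.62) and C4 (7.97 ± 1.31), all neighbours in this order lying within their SD. The libraries of C1, C3, C5 and C6 all lay above the highest library of WT and EV, at 6.92 FPKM, and those of C2 and C4 started at 6.50 and 6.55 FPKM. It made up 57.3% ± 4.03 of the summed beta isoforms in WT and 40.8% ± 4.35 in C2.

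PCDHB8 had 0.578, 0.340, 0.687 and 1.04 FPKM in WT and 0.917, 1.20, 0.850 and 1.00 FPKM in EV. It was highest in C6 (2.69, 2.24, 1.83 and 2.17 FPKM) and C5 (2.04, 2.49, 2.34 and 1.51 FPKM), whose libraries lay above all of WT and EV. C1 (1.84 ± 0.541 FPKM) and C2 (1.45 ± 0.0335) also lay above all 8 unedited libraries, and C3 (1.28 ± 0.183) and C4 (1.13 ± 0.403) overlapped with them (SD, n = 4 each). PCDHB12 had a mean of 0.579 ± 0.249 FPKM in WT, 0.879 ± 0.215 in EV and 1.48 ± 0.181 in C6, the line with its highest mean, and 0.808 ± 0.361 to 1.19 ± 0.352 in the other clones. The remaining beta isoforms over 0.1 FPKM, PCDHB4, PCDHB6, PCDHB7, PCDHB9, PCDHB10, PCDHB11, PCDHB13, PCDHB14, PCDHB15 and PCDHB16, had HAP1 means of 0.107 to 0.802 FPKM. Of these, PCDHB11 was at 0.0728 ± 0.0958 FPKM in WT and 0.0968 ± 0.0718 in EV and had means of 0.230 to 0.569 FPKM in the 6 clones.

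Each line was compared with WT in its own limma fit of 8 libraries, and all these comparisons share the 4 WT libraries. In C5, 3 of 24 genes tested were called at an adjusted p under 0.05, all higher: PCDHB2 by 2.70 (log2; standard error 0.14, adjusted p = 3.63e-05), PCDHB8 by 0.90 (standard error 0.18, adjusted p = 0.0211) and PCDHB5 by 0.86 (standard error 0.19, adjusted p = 0.0325). Of all genes, 5.22% were called in C5, 2.22% as higher. PCDHB5 lost its call without WT replicate 1 or 2 or C5 replicate 1, 3 or 4 (limma adjusted p up to 0.0966), and PCDHB8 without WT replicate 1 or C5 replicate 1 or 3 (up to 0.0640). In C6, 5 of 26 were called, all higher: PCDHB3 by 1.03 (standard error 0.15, limma adjusted p = 0.00286), PCDHB8 by 0.97 (0.00876), PCDHB5 by 0.75 (0.0426), PCDHB12 by 0.66 (0.0321) and PCDHB10 by 0.50 (0.0385). Of all genes, 8.69% were called in C6, 4.88% as higher. PCDHB3 and PCDHB8 were called whichever library was left out. PCDHB10 lost its call without any 1 of the 8 libraries (limma adjusted p up to 0.0987), and PCDHB5 (up to 0.125) and PCDHB12 (up to 0.0970) lost theirs without any library but WT replicate 3. With EV in place of WT, PCDHB12 (0.40) and PCDHB10 (0.40) were not called, and PCDHB12 was not called among genes with a mean of at least 1 FPKM.

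In C2, PCDHB2 alone was called among 24 genes, higher by 2.19 (standard error 0.16, limma adjusted p = 0.000253), against 0.569% of all genes. In C1, PCDHB2 alone was called among 28, higher by 0.94 (standard error 0.16, limma adjusted p = 0.0429), against 0.338% of all genes. The C1 and WT libraries were taken as paired by number, and a limma fit blocked on that number gave PCDHB2 in C1 an adjusted p of 0.0500259. Leaving out any 1 of the 8 libraries also ended this call (limma adjusted p up to 0.166), as did EV in place of WT. In C4, 0 of 26 were called by limma against 0.145% of all genes. PCDHB3 in C4 was higher by 1.07 (standard error 0.17) with a limma adjusted p of 0.0596. The blocked limma fit of these libraries, likewise taken as paired, called it at 0.0256 (against 0.913% of all genes).

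In C3, 0 of 26 were called by limma against 0.0889% of all genes. In EV, 0 of 24 were called against 0.0278% of all genes. The lowest p-values among the members tested in EV were those of PCDHB4 and PCDHGC3. PCDHB4 had 0.425, 0.486, 0.601 and 0.446 FPKM in EV against 0.0580, 0.0630, 0 and 0.177 FPKM in WT. The median log2 difference of the members tested lay between 0.08 in EV and 0.24 in C3, against -0.03 to 0.03 over all genes in the same 7 fits. The members tested changed with the fit. Some passed the filter through the line and not through WT, as PCDHB6, PCDHB7 and PCDHB11 did in C3 and PCDHB4 in EV. These medians therefore support no direction for the set.

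The mean of the 6 clones was compared with WT in the fit of 32 libraries. The median log2 difference over the 27 genes tested was 0.12, against -0.01 over all genes. Of the 27, 7 were called at an adjusted p under 0.05, all of them beta isoforms and all higher, against 5.16% of all genes (2.40% as higher). They were PCDHB2 (1.05, limma adjusted p = 2.12e-06), PCDHB8 (0.67, 0.000333), PCDHB5 (0.67, 0.000882), PCDHB12 (0.40, 0.0333), PCDHB11 (0.36, 0.00415), PCDHB3 (0.35, 0.0406) and PCDHB16 (0.33, 0.0217). With the replicate number as a block, 10 were called, against 9.54% of all genes: these 7 and PCDHB13 (limma adjusted p = 0.0213), PCDHB15 (0.0244) and PCDHB10 (0.0449). For PCDHB2 and PCDHB3 this mean covers clones on either side of WT. PCDHB11, which was called, and PCDHB6 and PCDHB7, which were not, passed the filter through the clones, where they were higher. In unedited HAP1 (WT and EV) they averaged 0.0848, 0.0809 and 0.0333 FPKM. The count of calls and the median difference therefore support no direction for the set. The call of PCDHB3 ended (limma adjusted p up to 0.214) when any 1 of the 4 WT libraries was left out, that of PCDHB12 (up to 0.170) without WT replicate 1 or 2, and that of PCDHB16 (up to 0.117) without WT replicate 2 or 3. The summed beta isoforms were 9.72 ± 2.88 FPKM in WT, 12.9 ± 0.937 in EV and 17.0 ± 3.16 (C4) to 26.0 ± 0.516 (C5) in the clones (SD, n = 4 each).

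Against EV in place of WT, the mean of the 6 clones had 7 calls of a different make-up, against 6.64% of all genes. PCDHB2 (0.79, limma adjusted p = 0.000129), PCDHB5 (0.46, 0.0202), PCDHB16 (0.41, 0.00295), PCDHB8 (0.40, 0.0311) and PCDHB11 (0.32, 0.00818) were higher in the clones, and PCDHGC3 (-0.85, 0.00694) and PCDHB4 (-0.38, 0.00211) were lower. PCDHB3 (0.26, limma adjusted p = 0.132) and PCDHB12 (0.14, 0.537) did not pass against EV. PCDHB11 was tested here, too, only because its clone values carried it over the filter. EV is itself one control line; its PCDHB4 values lay above all 4 of WT, its PCDHGC3 values overlapped with WT, and neither gene was called between EV and WT (limma adjusted p = 0.692 and 0.999).

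Among the alpha isoforms PCDHA3 was the one with a mean over 1 FPKM. It had 1.28, 0.486, 1.09 and 1.47 FPKM in WT, 1.23, 0.766, 1.41 and 0.756 FPKM in EV and 1.82, 1.69, 1.86 and 1.40 FPKM in C6. C6 had the highest mean, and its lowest library fell below the highest of WT and EV. The lines did not pass the F test for PCDHA3 (limma adjusted p = 0.251). PCDHA11 followed with a mean of 0.137 FPKM and 0 to 0.819 FPKM per library, and the other 12 alpha isoforms had means under 0.1 FPKM. 

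The C-type isoforms PCDHAC2 and PCDHGC3 were expressed in all 8 HAP1 lines, while PCDHGC4 was listed at 0 in 31 of 32 libraries and PCDHGC5 in 30 of 32. PCDHAC2 had 1.84, 2.17, 3.18 and 1.51 FPKM in WT and 1.52, 1.27, 2.08 and 1.64 FPKM in EV. It had its highest mean in C5 (2.81, 3.60, 3.10 and 2.83 FPKM) and its lowest in C3 (1.22, 1.67, 1.01 and 1.04 FPKM), and these 2 clones did not overlap. The gap between them was 0.88 (log2, limma adjusted p of the F test over the 8 lines = 0.0103).

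PCDHGC3 had 4.10, 3.41, 6.54 and 4.67 FPKM in WT and 7.85, 5.30, 8.65 and 8.50 FPKM in EV. Its means in the clones were 3.47 to 4.62 FPKM, with 1.73 to 6.03 FPKM per library. EV was the highest line, with 3 libraries above every library of the other lines and EV replicate 2 among them. The F test did not call the isoform (limma adjusted p = 0.0807). PCDHAC1 had 0.0786, 0.110, 1.12 and 0.535 FPKM in WT and 0.267, 0.212, 1.27 and 0.520 FPKM in EV. In both controls replicates 3 and 4 were higher than replicates 1 and 2, so the spread inside a line exceeded the differences between lines (limma adjusted p = 0.767).

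Among the gamma isoforms PCDHGA10 led, with a wide spread between replicates. It had 1.96, 1.10, 4.03 and 2.89 FPKM in WT and 1.55, 1.37, 4.15 and 3.33 FPKM in EV, where replicates 3 and 4 were again the higher ones, and its clone means were 2.14 to 3.28 FPKM. The 8 lines did not differ beyond this spread (gap 0.41, limma adjusted p = 0.910). Of the other 18 gamma isoforms, PCDHGA1, PCDHGA9, PCDHGA11, PCDHGB1, PCDHGB2 and PCDHGB7 had means of 0.110 to 0.235 FPKM and 12 were below 0.1 FPKM. No gamma isoform outside the C-type group was called in any comparison between HAP1 lines made here.

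**Figure D4:**
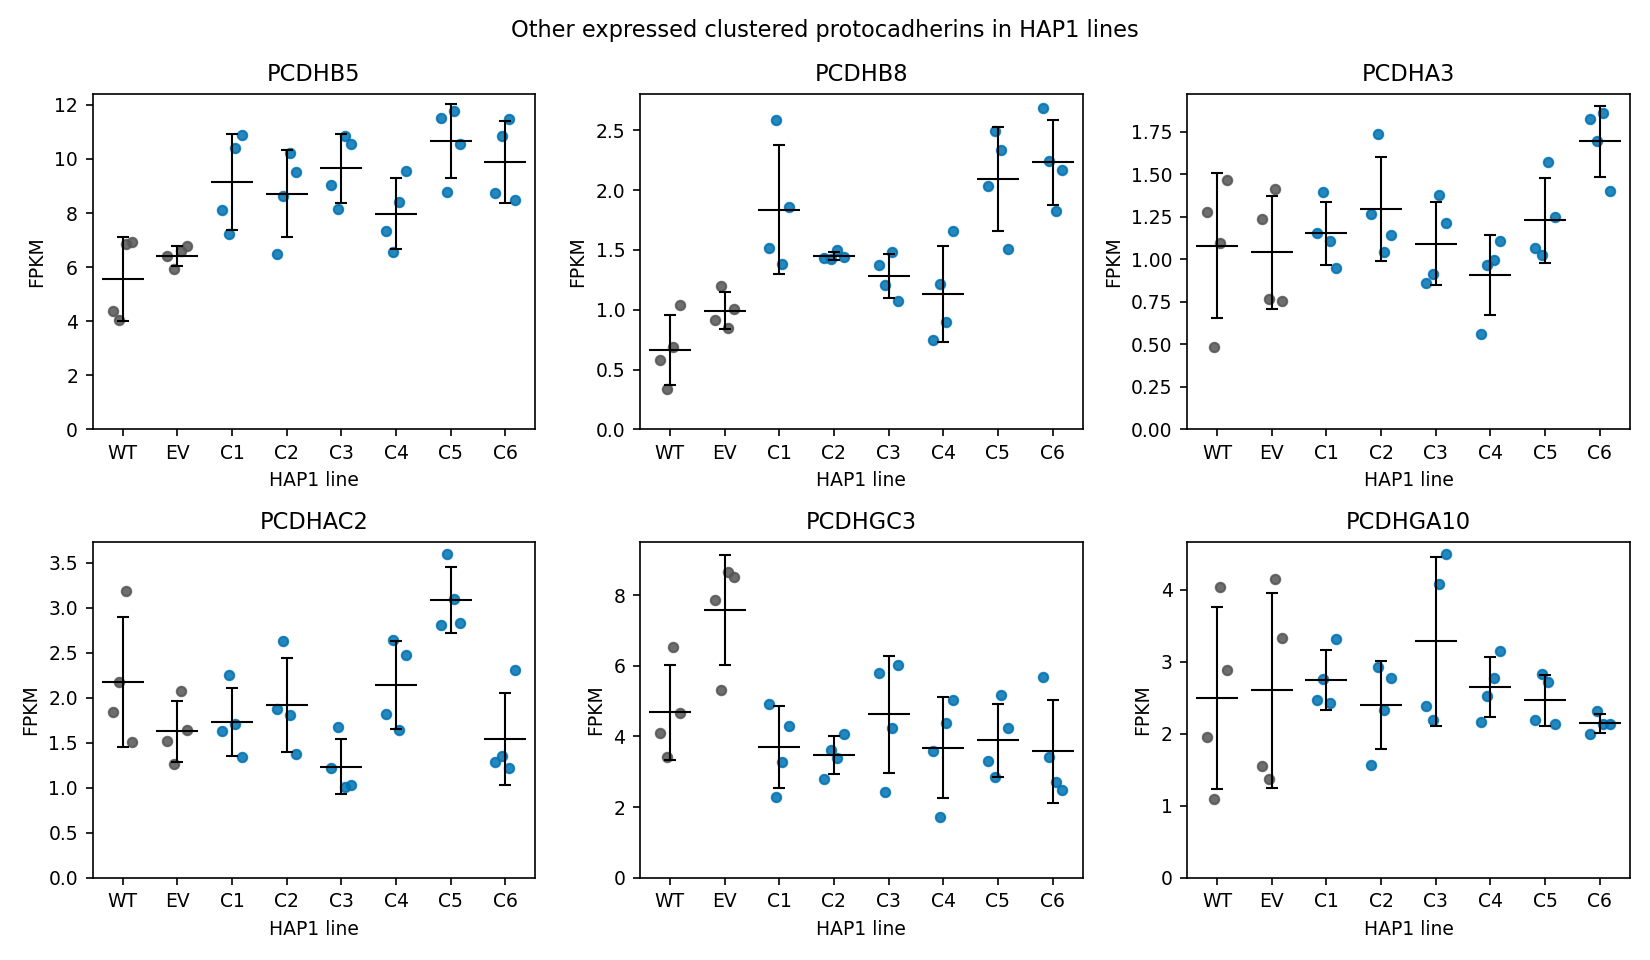
FPKM of the other expressed isoforms in each library of the 8 HAP1 lines (points; grey for WT and EV, blue for clones), with the mean and SD of the 4 libraries in black; each panel has its own axis from 0. PCDHB5 and PCDHB8 have higher means in the clones than in WT and EV, PCDHAC2 is highest in C5 and lowest in C3, PCDHGC3 is highest in EV, and PCDHGA10 overlaps in all lines.

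Replicates of a line were close in their beta profile. Across the 15 beta isoforms with a mean of at least 0.1 FPKM, the median Pearson's r of log2(FPKM + 1) between libraries of one line was 0.936 to 0.987, given as a description since isoforms share reads and libraries. Between lines, C2 and C5 were the most alike (median r 0.976 over 16 pairs of libraries) and C5 and C6 the least alike (0.590). WT was closer to C3 (0.956), EV (0.940), C6 (0.932), C4 (0.929) and C1 (0.927) than to C2 (0.788) and C5 (0.742). Each of the 16 libraries of C2, C4, C5 and C6 had its own line as the source of its nearest library, against 6 of the 16 libraries of WT, EV, C1 and C3.

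HCT116 had fewer isoforms over 1 FPKM. Over its 15 libraries, PCDHGA10 (2.70 ± 0.506 FPKM, SD, n = 15) and PCDHAC2 (2.02 ± 1.15), both also expressed in all 8 HAP1 lines, had a mean of at least 1 FPKM (3.704% of the 54, against 22.5% of all genes). PCDHAC1 (0.761 ± 0.522 FPKM), PCDHGC3 (0.528 ± 0.580), PCDHGB7, PCDHGA9, PCDHGB2, PCDHA11 and PCDHB14 lay between 0.1 and 1 FPKM, 45 were under 0.1 FPKM, and 9 were listed at 0 in all 15 libraries. The summed beta isoforms were at 0.353 ± 0.230 FPKM, and 0.475 FPKM, for PCDHB9 in EV2 replicate 4, was the highest beta value in any library. PCDHB5, the leading isoform of HAP1, reached 0.129 FPKM at most. With at least 1 FPKM in every library as the rule, WT expressed PCDHAC1, PCDHAC2 and PCDHGA10, Clone expressed PCDHAC2 and PCDHGA10, and EV1 and EV2 expressed PCDHGA10. The rule is easier to meet with fewer libraries, and WT had 2, against 3 in EV1 and 4 in EV2 and Clone. The library titled WT with an empty-vector genotype, left out here, had 0 FPKM of PCDHAC1 and 0.385 of PCDHAC2. A difference in repertoire between the HCT116 lines was therefore not resolved.

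PCDHGA10 had 2.45 and 2.76 FPKM in WT, 2.89, 1.86 and 2.20 FPKM in EV1, 2.53, 2.36, 2.85 and 1.82 FPKM in EV2, and 3.20, 3.49, 3.18 and 3.31 FPKM in Clone. The 2 libraries with conflicting labels had 2.53 and 3.01 FPKM, so all 4 libraries labelled Clone lay above all 11 unedited ones. The log2 difference was 0.31 (standard error 0.12) and did not pass the correction (limma adjusted p = 0.434).

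PCDHAC2 had 3.17 and 2.59 FPKM in WT, 2.68, 1.84 and 0.403 FPKM in EV1, 0.735, 0.472, 2.89 and 1.69 FPKM in EV2, and 3.58, 3.31, 1.42 and 3.30 FPKM in Clone. PCDHAC1 had 1.44 and 1.18 FPKM in WT, 1.30, 0.815 and 0.0543 FPKM in EV1, 0.167, 0.0993, 1.34 and 0.834 FPKM in EV2, and 0.872, 1.28, 0.378 and 1.17 FPKM in Clone. The same 4 libraries were lowest in both isoforms: EV2 replicates 1 and 2, EV1 replicate 3, and the library titled WT with an empty-vector genotype, which had 0.385 FPKM of PCDHAC2 and 0 of PCDHAC1. The levels differed within EV1 and EV2 by more than the line means differed. PCDHGC3, PCDHGC4 and PCDHGC5 ranged from 0 to 1.77, 0.375 and 0.0401 FPKM in HCT116.

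**Figure D5:**
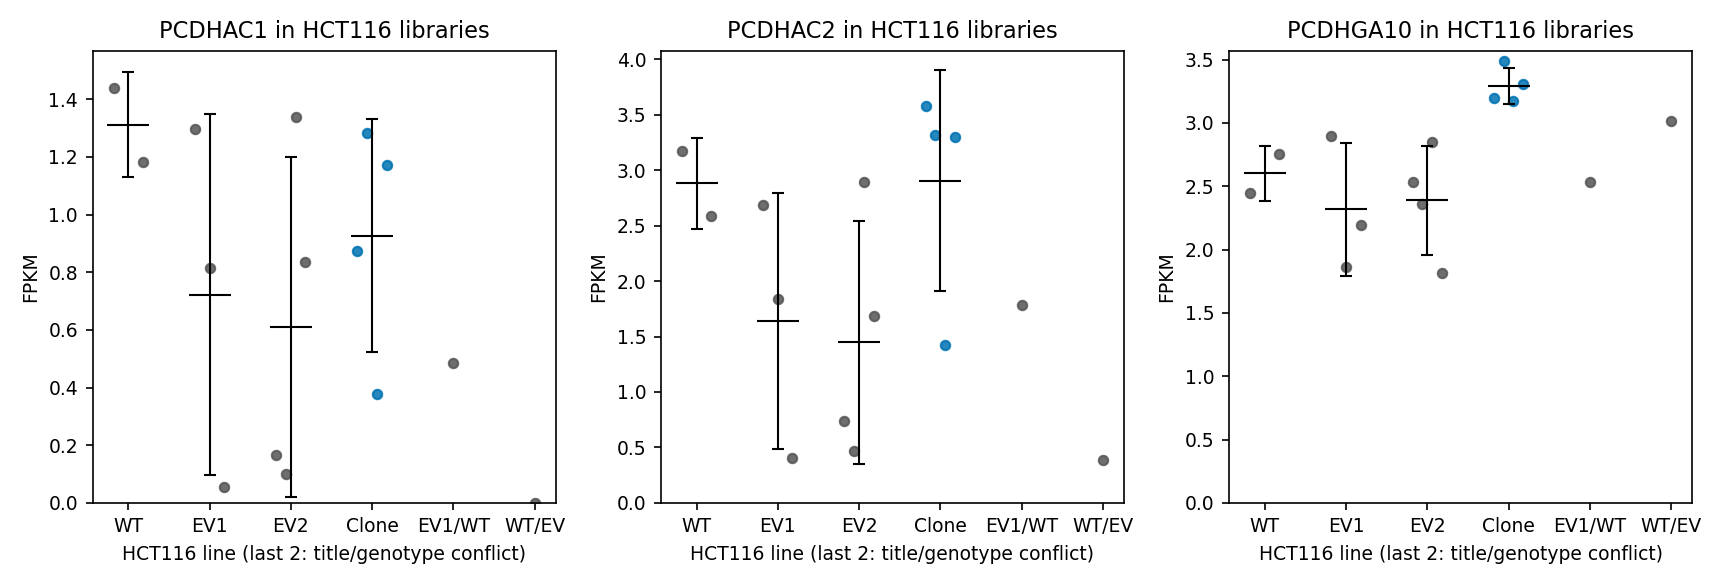
FPKM of PCDHAC1, PCDHAC2 and PCDHGA10 in each of the 15 HCT116 libraries by line (points; grey for unedited, blue for Clone), with the mean and SD in black where a line has more than 1 library; the last 2 positions are the libraries whose title and genotype conflict, named as title/genotype. PCDHAC1 and PCDHAC2 spread widely within EV1 and EV2, and PCDHGA10 lies between 1.82 and 3.49 throughout.

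Of the 9 clustered protocadherins tested among the 4 HCT116 lines (13 libraries with matching labels), 0 were called by limma's F test against 0.0336% of all genes. Of the 9 tested for Clone against the 11 unedited libraries, 0 were called by limma, as were 0 of all 17788 genes (0%). PCDHGA10 had the lowest unadjusted p of the 9 (limma, 0.0180). Without the HCT116 libraries numbered 3, which include both libraries that stood against their labels, 0 were called in either comparison.

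Unedited HAP1 (WT and EV, 8 libraries) and unedited HCT116 (11 libraries) were compared directly. Both sides pooled libraries of different lines, so these p-values treat repeats of a line as independent samples of the cell line. Of the 22 genes tested, 14 were called as higher in HAP1 and 0 as lower, and 62.0% of all genes were called, 36.0% as higher. This count supports no direction for the set: of the 14, PCDHB14 and PCDHGC3 alone had a mean of at least 0.1 FPKM in unedited HCT116, so the others passed the filter through HAP1, where they are high. The largest differences were those of PCDHB5 (2.74, standard error 0.09, limma adjusted p = 5.54e-17), PCDHGC3 (2.25, standard error 0.20, adjusted p = 1.53e-09) and PCDHA3 (1.02, standard error 0.09, adjusted p = 6.21e-10). PCDHA3 was listed at 0 in all 11 unedited HCT116 libraries. PCDHGA11 (0.15, limma adjusted p = 0.0433) was called on a margin that 14 of the 19 libraries ended when left out singly (up to 0.103): WT replicates 1, 3 and 4 and EV replicates 1 and 3 of HAP1, and 9 of the 11 HCT116 libraries, the exceptions being EV1 replicates 1 and 3. PCDHAC2 (1.90 ± 0.599 FPKM in HAP1, n = 8, and 1.69 ± 1.06 in HCT116, SD, n = 11), PCDHAC1 (0.514 ± 0.454 and 0.701 ± 0.564) and PCDHGA10 (2.55 ± 1.21 and 2.48 ± 0.399) overlapped between the cell lines and were not called.

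Genes that act on the clusters or with their proteins were read beside them. Of 12 genes for promoter choice and looping, such as CTCF and the cohesin subunits, 0 were called among the 8 HAP1 lines at a gap over 1 (6.42% of all genes), and 4 passed the limma adjusted p at any gap (17.7% of all genes). Those 4 were the cohesin subunits STAG2 (gap 0.89, limma adjusted p = 0.000139) and SMC1A (0.78, 0.000174) and the cohesin regulators PDS5B (0.81, 1.11e-05) and NIPBL (0.39, 0.0250). In this list ZNF143, a zinc finger protein found at looping promoters, was called in the mean of the clones (0.37, limma adjusted p = 0.0304; 14.5 FPKM in the clones and 11.01 in WT). Of 14 genes for silencing and methylation, 2 were called among the lines and the same 2 passed at any gap, LRIF1 (gap 1.19, limma adjusted p = 0.00216) and the histone methyltransferase EHMT2 (gap 1.06, 1.45e-06), and 0 in the mean of the clones. Of 13 signalling partners, the receptor RET was called among the lines (gap 1.20, limma adjusted p = 0.0103) and 3 passed at any gap, and WASF1 (0.24, 0.0394) and the protease ADAM10 (0.33, 0.0227) were called in the mean of the clones.

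Of 8 non-clustered protocadherins tested, which lie elsewhere in the genome, 6 passed at any gap and 4 were called among the 8 HAP1 lines: PCDH7 (gap 1.54, limma adjusted p = 3.09e-13), PCDH18 (1.501, 0.01001), PCDH11X (1.32, 1.22e-07) and PCDH20 (1.08, 1.52e-05). In the mean of the clones PCDH11X (0.60, limma adjusted p = 0.000351) and PCDH7 (0.39, 0.00419) were higher and PCDH20 (-0.53, 0.0106) was lower. Of 14 genes beside the clusters on 5q31, 0 were called among the lines, 2 passed at any gap, RELL2 (gap 0.79, limma adjusted p = 0.00359) and ZMAT2 (0.32, 0.0124), and 1, ZMAT2, was lower in the mean of the clones (-0.21, limma adjusted p = 0.0451). SLC35A4, another of these neighbours, had a mean of 22.9 FPKM in unedited HCT116 and 0.0735 FPKM in unedited HAP1 (-4.46, limma adjusted p = 1.94e-20). In the HCT116 Clone, 0 genes of any of these 5 lists were called by limma, as were 0 of all genes.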

How the data were processed

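The deposited table held one FPKM value per gene for 47 libraries (32 HAP1, 15 HCT116). Per the labels, libraries were made from total RNA with an Illumina TrueSeq HT kit; per the study's methods, the authors trimmed adaptors, aligned reads to GRCh38.p13 with STAR and computed FPKM with RSEM, without further normalization; tool versions are not given in the sources used here. All 47 columns were used and no 2 libraries were identical. The depth behind each value is unknown, so precision was judged from replicates. Genes with a mean of at least 0.1 FPKM were tested on log2(FPKM + 1) with limma 3.58.1 (R 4.3.3; lmFit, then eBayes with a trend), which understates changes of low genes, and p-values were adjusted by Benjamini-Hochberg over all genes tested. The tests were tried on simulated data. Positions came from GENCODE release 44 and promoters from RefSeq GRCh38.p14.

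The rule for named genes took isoforms expressed in a line (at least 1 FPKM in every library), the C-type isoforms, and up to 4 genes per list with the largest change at an adjusted p under 0.05. Other isoforms, such as PCDHB4, PCDHB10, PCDHB11 and PCDHB16, were named after their values were seen. The members, lists, markers and tests were chosen with earlier results of these data known. Libraries were grouped by their labels. The correlation of deviations between same-numbered libraries and WT exceeded 0.1 in all 4 pairs for EV and C1 to C4, and in 2 of 4 pairs for C5 and C6. The first 5 lines were taken as paired. The correlation ran from 0.122 to 0.424 in C1, from -0.0212 to 0.592 in C5 and from -0.291 to 0.357 in C6. Differently numbered libraries were not compared, so pairing itself was not tested. Alternatives were other filters, pseudocounts (0.1), scalings (TPM, median ratio), thresholds, reference lines, a replicate block and each library left out. For the counts of expressed isoforms, each replicate number was left out of every line at once instead.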

Additional observations from a re-analysis of the deposited data

Results flagged for a closer look

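Within groups of 4 libraries, 9 of the 122 isoform and line combinations examined held a library whose gap to its nearest neighbour took most of the range (Dixon's test at the 95% level), where chance alone flags about 1 in 20. These were PCDHAC2 in C6 replicate 4 (2.31 FPKM), PCDHAC2 in the library labelled HCT116 Clone replicate 3 (1.42 FPKM), PCDHB3 in C3 replicate 4 (1.28 FPKM), PCDHB10 in WT replicate 4 (0.382 FPKM) and in EV replicate 1 (0.483 FPKM), PCDHB11 in C3 replicate 2 (0.439 FPKM) and PCDHB12 in C4 replicate 1 (0.683 FPKM). PCDHGC4 stood out in C4 replicate 1 (0.744 FPKM, with the other 3 libraries of C4 at 0) and in HCT116 Clone replicate 1 (0.143 FPKM). The library labelled HCT116 Clone replicate 3 is one of the libraries that stood against their labels on *NUP58*.

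By limma's F test over the clones, the change against WT differed between the 6 clones for 4 of the 27 isoforms tested. This count is near the share of all genes that passed, 13.4%. The 4 were PCDHB2 (limma adjusted p = 8.38e-14), PCDHB3 (1.64e-09), PCDHAC2 (0.00633) and PCDHB8 (0.0148). PCDHB2 was higher than WT by 2.70 in C5 and 2.19 in C2 (log2), and PCDHB3 by 1.07 in C4 and 1.03 in C6. A clone is one line, so these differences are between lines and their spread is that between libraries of a line.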

How the results depend on the processing

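PCDHB2 and PCDHB3 stayed called among the 8 HAP1 lines in every alternative that tested them (40 and 39), and the count of 2 became 1 with a mean of at least 1 FPKM, 10 with a pseudocount of 0.1, 10 at any gap and 2 to 3 with a library left out. The 7 isoforms in the mean of the clones became 3 with a mean of at least 1 FPKM, 1 at an unadjusted p under 0.01 with a fold over 2, and 5 to 7 with a library left out. The 14 calls of HAP1 against HCT116 became 2 and 3 under the same settings and 12 to 14 with a library left out. The 10 calls of single lines against WT became 4 at the stricter fold, 23 in one fit of all 32 libraries, 17 against EV, and 4 to 10 with a library left out. The lowest of these, 4, 5 and 6, came from leaving out WT replicates 1, 2 and 4. The 0 calls in HCT116 stayed 0 throughout. The count of isoforms expressed in at least 1 HAP1 line was 9, and 14 at 0.5 FPKM and 5 at 2 FPKM. It was 9 to 10 with 1 replicate number left out of every line at once. Of the 4 expressed in all 8 lines, 1 was left at 2 FPKM. No called difference changed sign, and where a count moved the cause was not tested. The shares of all genes called under these settings are not given here, so a moved count supports no conclusion for the set.

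With the replicate block, the counts were 2 among the HAP1 lines, 10 in the mean of the clones, 3 in C5 and 2 in C6 (PCDHB3 and PCDHB8), with no other change to the calls of single lines beyond those given for C1 and C4. C5 and C6 were not taken as paired with WT, and whether their numbers pair was not tested. PCDHB3 in the mean of the clones also lost its call with TPM scaling and with a pseudocount of 0.1, and PCDHB5 in C6 with median-ratio scaling.

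FPKM holds no read numbers, so values under 0.1 FPKM, and differences between them, cannot be given a counting error.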

Other observations

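Of the pseudogenes of the clusters, which the rule left out, PCDHB18P had the highest levels in HAP1: 0.175 ± 0.105 FPKM in WT and 0.207 ± 0.122 in EV, and 0.190 ± 0.0904 (C4) to 0.475 ± 0.197 (C2) in the clones (SD, n = 4 each). It was listed at 0 in all 15 HCT116 libraries.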
